A study of Mus musculus with 6 samples.

Results

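The immunity-related GTPases (IRG proteins) are a family of interferon-inducible GTP-binding proteins, and 7 of their genes were followed here in colon epithelial cells of mice given a statin or its vehicle: Irgm1, Irgm2, Igtp, Iigp1, Ifi47, Tgtp1 and Tgtp2. The genes were chosen by family membership, from their mouse symbols, and each matched a single Ensembl identifier, so 7 of the 52550 identifiers in the files are described. The family was singled out with the difference between the atorvastatin and control libraries already known, and the values of that comparison are therefore a description of these libraries and support nothing beyond it. The 6 libraries came from male Apc Min/+ mice, which carry a truncating mutation in 1 copy of the tumour suppressor Apc, the Min allele, and develop intestinal adenomas. Mice of 5 to 6 weeks were gavaged on alternate days. In 3 libraries the mice had received atorvastatin at 20 mg/kg, an inhibitor of the enzyme that makes mevalonate, and in the other 3 the vehicle control, 2% Tween 80. The length of the treatment, the number of animals behind a library and whether animals were pooled are not given in the sources used here, so p-values measure only the spread between these libraries, which may be technical.

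IRG genes are switched on mainly by interferon gamma, and also by type I interferons. In mouse cells the effector proteins Iigp1 (Irga6), Ifi47 (Irgd) and Tgtp (Irgb6) gather on the vacuoles in which intracellular parasites and bacteria live and take part in breaking those membranes. The regulators Irgm1, Irgm2 and Igtp (Irgm3) sit on the cell's own membranes and keep the effectors inactive there. In the gut epithelium the family is known for its part in the defence against intracellular pathogens and in autophagy.

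The regulators and the effectors are told apart by the G1 loop, the stretch of a GTPase that wraps the phosphates of GTP. The sequences below are the coding bases of that loop in 6 of the genes, read in the coding direction from GENCODE M21 transcripts on GRCm38, and they are shown because they divide the family into the groups used for the results. The capitals mark the codon at which the regulators encode methionine, which gives them the name GMS proteins, and the effectors lysine, which gives them the name GKS proteins.
Igtp (chr11:58206275-58206298, plus strand): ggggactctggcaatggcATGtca
Irgm1 (chr11:48866761-48866784, minus strand): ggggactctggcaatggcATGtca
Irgm2 (chr11:58219695-58219718, plus strand): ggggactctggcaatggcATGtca
Ifi47 (chr11:49095648-49095671, plus strand): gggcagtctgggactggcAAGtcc
Tgtp1 (chr11:48987667-48987690, minus strand): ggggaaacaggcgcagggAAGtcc
Tgtp2 (chr11:49059534-49059557, minus strand): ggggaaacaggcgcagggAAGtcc
The 3 regulators share the same 24 bases here, and so do Tgtp1 and Tgtp2. The codon at this place in Iigp1 is AAG, as in the other effectors. Over the whole coding sequence the regulators were 67.2% to 73.1% identical to each other in aligned bases, and Tgtp1 and Tgtp2 were 99.7% identical, with 4 mismatches in 1245 bases.

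Values are FPKM, fragment counts corrected for gene length and library size, so levels of different genes can be compared per length. In control the regulators were the most abundant members. Irgm2 and Irgm1 stood at 12.8 ± 1.58 and 11.7 ± 2.33 FPKM and Igtp at 10.3 ± 1.11 FPKM (SD, n = 3), and the order among these 3 differed between control libraries, so neighbours in it do not differ beyond their spread. Iigp1, at 6.88 ± 1.33 FPKM, and Ifi47, at 6.89 ± 1.38 FPKM, followed, with overlapping ranges. Tgtp2 and Tgtp1 were the lowest, at 1.51 ± 0.467 and 1.35 ± 0.488 FPKM. Most of their sequence is shared, and how reads matching both were handled is not known, so their place in the order is uncertain. With atorvastatin the order of the first 5 was the same in all 3 libraries: Irgm1, Irgm2, Igtp, Ifi47, Iigp1. The summed level of the 7 genes was 55.5, 48.9 and 50 FPKM in control replicates 1, 2 and 3 and 20.8, 26.2 and 25.6 FPKM in atorvastatin replicates 1, 2 and 3. The share of Iigp1 in that sum was 10.4% to 17.1% in control and 2.87% to 5.35% with atorvastatin, while the share of Irgm1 was 18.6% to 27.0% and 32.3% to 38.2%.

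**Figure D1:**
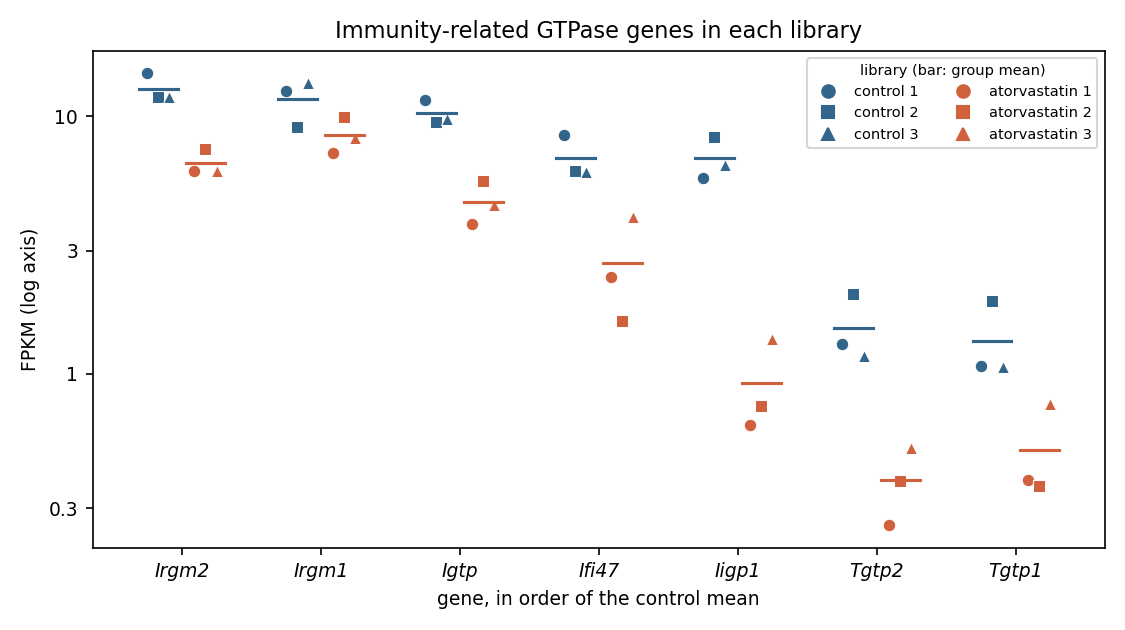
FPKM of each of the 7 genes (log axis) in every library, with control in blue, atorvastatin in orange, the marker shape giving the replicate number and the bar the mean of 3 libraries. The groups are apart for 6 genes and overlap for Irgm1, where control replicate 2 (9.09 FPKM) lies below atorvastatin replicate 2 (9.99 FPKM).

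Of the 7 members, 3 were called lower with atorvastatin at an adjusted p under 0.05 in limma's test over all 11644 genes that reached 1 FPKM in at least 3 libraries; among all tested genes 0.249% were called lower. The called members were Iigp1, Igtp and Irgm2. At an unadjusted p under 0.05 in limma's test all 7 members were lower, as were 497 of all tested genes. In 6 of the 7 the groups did not overlap, with atorvastatin lower, as in 6.05% of the tested genes. Since the family was picked with this comparison known, nothing is read from these counts. Differences are given as log2(FPKM + 1), atorvastatin minus control, a scale that shrinks the changes of lowly expressed genes. The value after ± is limma's standard error for a difference and the SD for a level in FPKM. The median difference of the 7 genes was -0.87, beside 0.0184 for all tested genes. All 7 differences were negative, as were 42.7% of the differences of tested genes. The count of called members changed when single libraries were left out. It was 0 without control replicate 1, when 4 members were lower at an unadjusted p under 0.05 in limma's test. In that fit 0 of all tested genes were called lower. The count was 1 without control replicate 2, without atorvastatin replicate 1 or without atorvastatin replicate 3. Leaving out control replicate 3 gave a count of 2, and dropping atorvastatin replicate 2 kept all 3 calls. The median difference of the fitted members stayed between -0.94 and -0.83 in all these fits. Tgtp1 and Tgtp2 were not fitted when a control library was left out. All 7 genes passed the filter on low values, but Tgtp1 and Tgtp2 reached 1 FPKM in the 3 control libraries only, and they would not pass a filter on the mean of the 6 libraries.

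**Figure D2:**
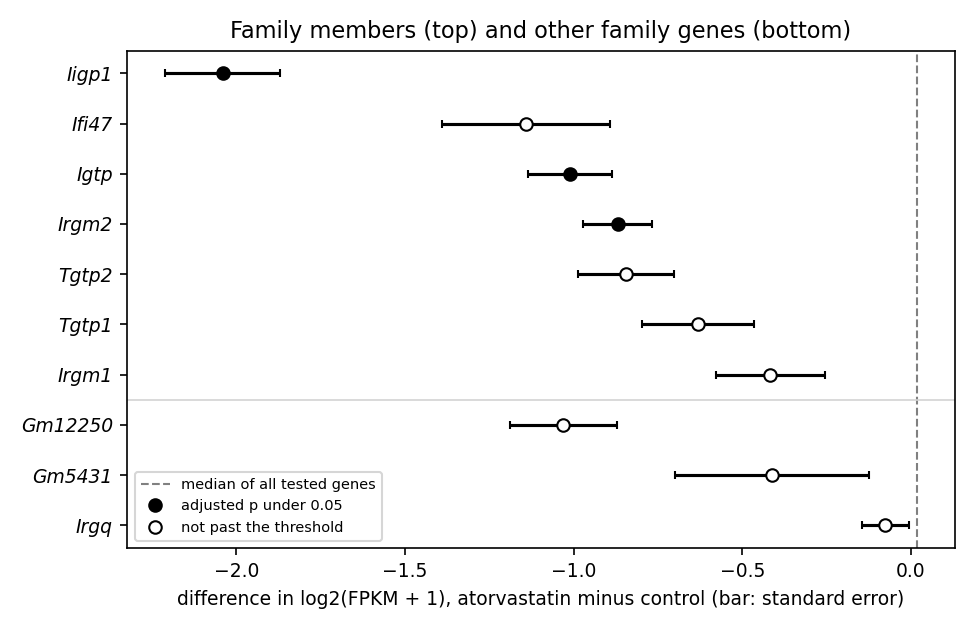
Difference in log2(FPKM + 1), atorvastatin minus control, with its standard error, for the 7 members (above the line) and the 3 other tested genes of the family (below it); filled points have an adjusted p under 0.05. Iigp1 lies farthest from the median of all tested genes, and Irgm1 is the member nearest to it.

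Among the regulators, Irgm2 and Igtp were called lower and Irgm1 did not pass the test. Irgm2, a regulator found at the Golgi apparatus (ENSMUSG00000069874, chromosome 11, 58199618 to 58222782, plus strand), was at 14.7, 11.9 and 11.9 FPKM under vehicle and 6.14, 7.45 and 6.11 FPKM under atorvastatin. Every atorvastatin library lay below every control library, at 51.2% of the control mean (difference -0.87 ± 0.10, limma adjusted p = 0.0265). Igtp, a regulator of the endoplasmic reticulum (ENSMUSG00000078853, chromosome 11, 58199556 to 58207591, plus strand), was at 11.6, 9.5 and 9.81 FPKM under vehicle and 3.81, 5.61 and 4.52 FPKM under atorvastatin. The groups were again apart, at 45.2% of the control mean (-1.01 ± 0.13, limma adjusted p = 0.029). The adjusted p ran from 0.0199 to 0.169 for Irgm2 and from 0.0192 to 0.203 for Igtp over their alternatives.

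Igtp and Irgm2 are not independent measurements. Their annotated spans overlap by 7974 bases, since 1 Irgm2 transcript starts close to the Igtp start and splices over that gene, and their exons share 162 bases. Of the distinct 50-base stretches in Igtp transcripts, 11.8% also occur in an Irgm2 transcript. The ratio of Igtp to Irgm2 was 0.788 to 0.822 in control and 0.621 to 0.753 with atorvastatin. Added together they stood at 23.1 ± 2.68 and 11.2 ± 1.63 FPKM, a difference of -0.98 ± 0.11 (limma adjusted p = 0.025).

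Irgm1, the regulator that also acts at lysosomes and mitochondria and in autophagy (ENSMUSG00000046879, chromosome 11, 48861968 to 48871683, minus strand), was at 12.6, 9.09 and 13.5 FPKM under vehicle and 7.2, 9.99 and 8.27 FPKM under atorvastatin. Control replicate 2 fell among the atorvastatin libraries, and the means differed by 1.38-fold (difference -0.42 ± 0.16, limma adjusted p = 0.374). Its adjusted p stayed above 0.05 in all 17 alternatives, from 0.175 to 0.655. The other regulators were lower relative to Irgm1 with atorvastatin: the ratio of Igtp to Irgm1 was 0.728 to 1.05 in control and 0.53 to 0.561 with the drug, and that of Irgm2 to Irgm1 was 0.885 to 1.31 and 0.739 to 0.853. These ratios were not tested between groups. Little of Irgm1's sequence is shared, with 0.379% of its 50-base stretches found in transcripts of another gene.

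Among the effectors, Iigp1 was called lower and the other 3 genes did not pass the test. That split does not follow the size of the drop. Ifi47, Tgtp1 and Tgtp2 stood at 39.0%, 37.5% and 25.5% of their control means, under the 45.2% of Igtp and the 51.2% of Irgm2. The Tgtp1 and Tgtp2 levels were near or under 1 FPKM. Iigp1, a GKS protein that is among the first to load onto parasite vacuoles (ENSMUSG00000054072, chromosome 18, 60376027 to 60392634, plus strand), was at 5.78, 8.35 and 6.5 FPKM under vehicle and 0.631, 0.752 and 1.37 FPKM under atorvastatin. The groups were far apart, with the highest atorvastatin value well under the lowest control value, and the means differed 7.49-fold (difference -2.04 ± 0.17, limma adjusted p = 0.0168). Iigp1 reached 1 FPKM in 4 of the 6 libraries, so the 7.49-fold ratio rests on low atorvastatin values. At a pseudocount of 0.1 its difference was -2.83. Relative to Irgm1 its level was 0.458 to 0.919 in control and 0.0753 to 0.166 with atorvastatin. The adjusted p was 0.0533 without control replicate 1, in a range of 0.00675 to 0.136 over 17 alternatives. Of its 50-base stretches, 1.69% occur in another gene.

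Ifi47, an effector whose role on vacuoles is less well known (ENSMUSG00000078920, chromosome 11, 49076587 to 49096974, plus strand), was at 8.48, 6.12 and 6.07 FPKM under vehicle and 2.37, 1.61 and 4.07 FPKM under atorvastatin. The groups did not overlap, but the atorvastatin libraries were spread widely, and the difference of -1.14 ± 0.25 did not pass (limma adjusted p = 0.147). Without atorvastatin replicate 3, the highest of its group, the difference was -1.40 (limma adjusted p = 0.0648), and over 17 alternatives the adjusted p ran from 0.0648 to 0.384.

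Tgtp1 and Tgtp2, neighbouring copies that encode the T-cell specific GTPase (ENSMUSG00000078922 and ENSMUSG00000078921, chromosome 11, 48985327 to 48994172 and 49057194 to 49064206, minus strand), cannot be measured apart with certainty. Of their 50-base stretches, 79.4% of those in Tgtp1 also occur in Tgtp2, and 85.8% of those in Tgtp2 also occur in Tgtp1. Tgtp1 was at 1.07, 1.91 and 1.06 FPKM under vehicle and 0.386, 0.368 and 0.763 FPKM under atorvastatin (difference -0.63 ± 0.17, limma adjusted p = 0.194). Tgtp2 was at 1.31, 2.04 and 1.17 FPKM under vehicle and 0.258, 0.384 and 0.513 FPKM under atorvastatin (-0.85 ± 0.14, limma adjusted p = 0.0707). Both genes were highest in control replicate 2, and neither overlapped between groups. Their sum was 2.86 ± 0.952 FPKM in control and 0.891 ± 0.338 FPKM with atorvastatin (-1.02 ± 0.19, limma adjusted p = 0.0971).

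Within the groups the members did not vary as 1 block. Deviations of each gene from its own group mean do not use the difference by which the family was picked. Iigp1, Tgtp1 and Tgtp2 stood above their control mean in control replicate 2 (by 0.26, 0.33 and 0.29 on the log2(FPKM + 1) scale), where all 3 regulators stood below theirs (deviations of -0.32 for Irgm1, -0.10 for Igtp and -0.09 for Irgm2). In atorvastatin replicate 3, Iigp1, Tgtp1, Tgtp2 and Ifi47 stood above their group mean, by 0.13 to 0.52. In atorvastatin replicate 2 the regulators were the higher ones, by 0.16 to 0.24, while Ifi47 deviated by -0.44. Over the 6 libraries the Pearson correlation of these deviations was 0.934 between Tgtp1 and Tgtp2 and 0.89 between Igtp and Irgm2, the pairs that share sequence. It was 0.929 between Iigp1 and Tgtp1, which lie on different chromosomes, 0.722 between Igtp and Irgm1, and -0.687 between Irgm1 and Tgtp1. Across all 21 pairs it was positive in 9, with a median of -0.12. These are descriptions over 6 libraries that share their group centring.

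**Figure D3:**
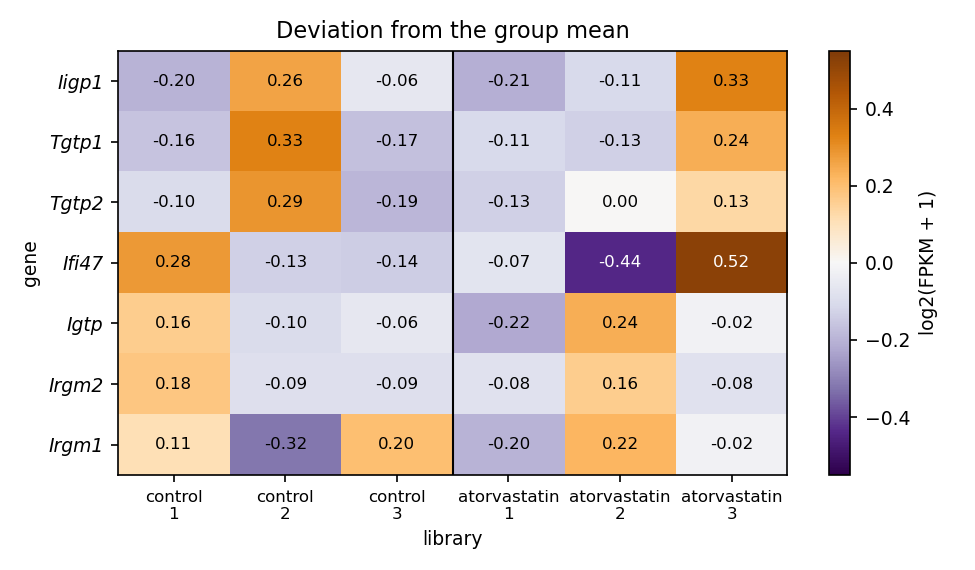
Deviation of each gene (rows) from its group mean in each library (columns), in log2(FPKM + 1), with orange above and purple below the mean. The effectors Iigp1, Tgtp1 and Tgtp2 share their pattern, highest in control replicate 2 and atorvastatin replicate 3, and the regulators Igtp, Irgm2 and Irgm1 are highest in atorvastatin replicate 2 within their group.

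Between 11456 and 11655 genes reached 1 FPKM in a library, and the values of a library summed to between 407856.8 and 430832.2 FPKM. All 11 markers of colon epithelium were present, with summed levels of 9733.2 to 10729.8 FPKM in control and 9347.8 to 10740.4 FPKM with atorvastatin. In limma none was called, and 0 had an unadjusted p under 0.05. Krt8, a keratin of simple epithelia, and Epcam, an epithelial adhesion protein, had group means differing 1.05-fold and 1.09-fold.

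The upstream sequences of 4 members carry the same arrangement of interferon-response motifs. The promoter table from RefSeq (GRCm38.p6) held 6 of the 7 genes, each as 250 bases before and 50 after the annotated start. These windows were searched on both strands for GAAANNGAA, the core of the interferon-stimulated response element, which proteins of the IRF family bind, and for TTCNNNGAA, the gamma-activated site, an element of genes that interferon gamma induces. The first was found in 5 of the 6 promoters and the second in 4, where 8.56% and 8.3% of all 32851 promoters in the table hold them. The stretches of 60 bases around the matches are shown because the pair recurs in 4 genes, and the capitals mark the matches.
Igtp (chr11:58199491-58199550, plus strand): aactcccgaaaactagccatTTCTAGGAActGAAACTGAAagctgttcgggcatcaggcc
Irgm2 (chr11:58214882-58214941, plus strand): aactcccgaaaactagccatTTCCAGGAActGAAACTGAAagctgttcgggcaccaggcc
Tgtp1 (chr11:48992295-48992354, minus strand): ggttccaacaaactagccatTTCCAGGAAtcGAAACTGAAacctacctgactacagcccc
Tgtp2 (chr11:49064254-49064313, minus strand): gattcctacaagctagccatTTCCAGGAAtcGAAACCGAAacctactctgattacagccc
Irgm1 (chr11:48871421-48871480, minus strand): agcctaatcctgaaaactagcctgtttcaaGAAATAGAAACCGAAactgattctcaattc
In Igtp, Irgm2, Tgtp1 and Tgtp2 the gamma-activated site comes first and the response element core follows after 2 bases. This arrangement, noticed in these sequences and then counted, occurs in 8 of the 32851 promoters (0.0244%), and 4 of those 8 are members of the family described here. The shown stretches of Igtp and Irgm2 are nearly alike, and Tgtp1 and Tgtp2 are close copies, so the 4 are not independent occurrences. Another of the 8, Gm12185, is a family gene on chromosome 11 whose GENCODE span overlaps that of Tgtp1, although its RefSeq promoter window lies apart from the Tgtp1 window. Irgm1 holds 2 overlapping copies of the response element core and no gamma-activated site in its window, and the Ifi47 window holds neither. Most Ifi47 transcripts in GENCODE start further downstream than the RefSeq start, so that window is not the one before their starts. A match is a description of the letters, and an absent match says nothing about the factor.

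**Figure D4:**
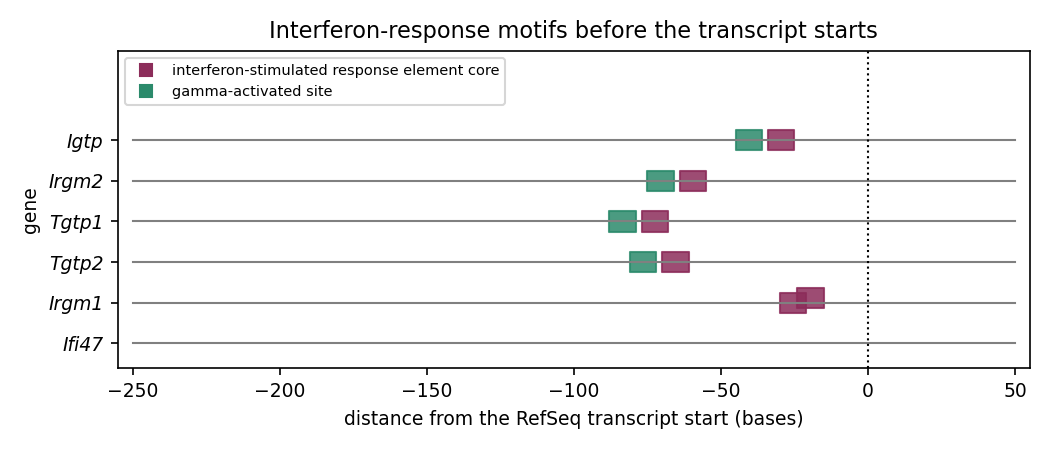
Position of the motif matches in bases from the RefSeq transcript start (dotted line at 0) for 6 genes, with the gamma-activated site in green and the response element core in purple. The pair lies between positions -88 and -26 in Igtp, Irgm2, Tgtp1 and Tgtp2, and Irgm1 has 2 overlapping cores between positions -30 and -16.

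Of 10 further family genes in the files, 3 reached the filter, all with negative differences. In limma none was called and 1 had an unadjusted p under 0.05. Gm12250, the Irgb10 locus, annotated in GENCODE as a processed pseudogene, was at 6.77, 4.33 and 4.69 FPKM under vehicle and 1.9, 2.5 and 1.74 FPKM under atorvastatin (difference -1.03 ± 0.16, limma adjusted p = 0.0646), with no overlap between groups. Gm5431 had a difference of -0.41 ± 0.29, and its atorvastatin replicate 2, at 2.43 FPKM, was the highest of the 6 libraries. Irgq, a distant relative of the family, had 94.2% of its control mean (-0.08 ± 0.07, limma adjusted p = 0.738). Gm4951, which lies near Iigp1 and is named after its values were seen, was at 0.887, 1.32 and 0.751 FPKM under vehicle and 0.0102, 0.0546 and 0.0871 FPKM under atorvastatin, too low to be tested.

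Among genes of the interferon gamma pathway, Nlrc5 was called lower. Of 14 listed, 10 were tested, all with negative differences and a median of -0.10, and 1 passed, beside 0.249% called lower among all tested genes. Nlrc5, the activator of MHC class I genes, fell from 2.53, 2.3 and 2.05 FPKM to 0.664, 0.907 and 0.906 FPKM (-0.85 ± 0.09, limma adjusted p = 0.021). It reached 1 FPKM in the 3 control libraries only, so it passed the filter on low values through control alone. Jak1, a kinase of the receptor, was at 91.6% of its control mean (limma adjusted p = 0.406), and the receptor chain Ifngr1, picked for its role after its values were seen, at 94.9% (0.609). Irf1, an interferon-induced activator of the family, was at 31.5, 33.9 and 37.8 FPKM under vehicle and 31.4, 30.2 and 30.3 FPKM under atorvastatin (-0.16 ± 0.07, limma adjusted p = 0.441). Cd274, the checkpoint ligand PD-L1, and Cxcl10, a chemokine, had differences of -0.42 and -0.25 and did not pass. Ifng itself, the cytokine gene, was under the filter at 0.4, 0.36 and 0.448 FPKM under vehicle and 0.265, 0.119 and 0.3 FPKM under atorvastatin.

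In the pathway of type I and III interferons, 8 of 12 genes were tested, 7 with a negative and 1 with a positive difference. Of these 1 was called lower, beside 0.249% of all tested genes. Irf9, a DNA-binding factor of the type I response, fell to 66.3% of its control mean (difference -0.53 ± 0.07, limma adjusted p = 0.0334). Irf7, which amplifies type I responses, and Stat2, the partner of Irf9, were at 65.4% and 65.5% of control and did not pass (limma adjusted p = 0.072 and 0.258). Il10rb, a receptor chain shared with interleukin 10, was at 91.3% and Tyk2, a receptor kinase, at 90.2%, and Ifnb1 was listed at 0 in every library.

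The guanylate-binding proteins, GTPases that act on the same vacuoles, stood beside the family. Of 11 listed, 4 were tested, all with negative differences and a median of -0.77, and Gbp3 and Gbp6 were called lower (differences -1.18 and -0.81, limma adjusted p = 0.0314 and 0.029). Among all tested genes 0.249% were called lower. With atorvastatin Gbp6 was near the filter, at 0.84, 1.12 and 0.953 FPKM. Gbp2 and Gbp7 had 51.9% and 56.1% of their control means and did not pass. The autophagy conjugation genes, whose products direct IRG proteins to vacuoles, were all 11 tested; in limma none was called and 1 had an unadjusted p under 0.05. Their median difference was 0.01, with 5 negative and 6 positive, and Atg3 and Atg7, the enzymes that attach and activate the ubiquitin-like proteins, had 93.1% and 110.8% of their control means. Map1lc3a had the smallest p of the list, with a difference of -0.23 ± 0.05 (limma adjusted p = 0.147).

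**Figure D5:**
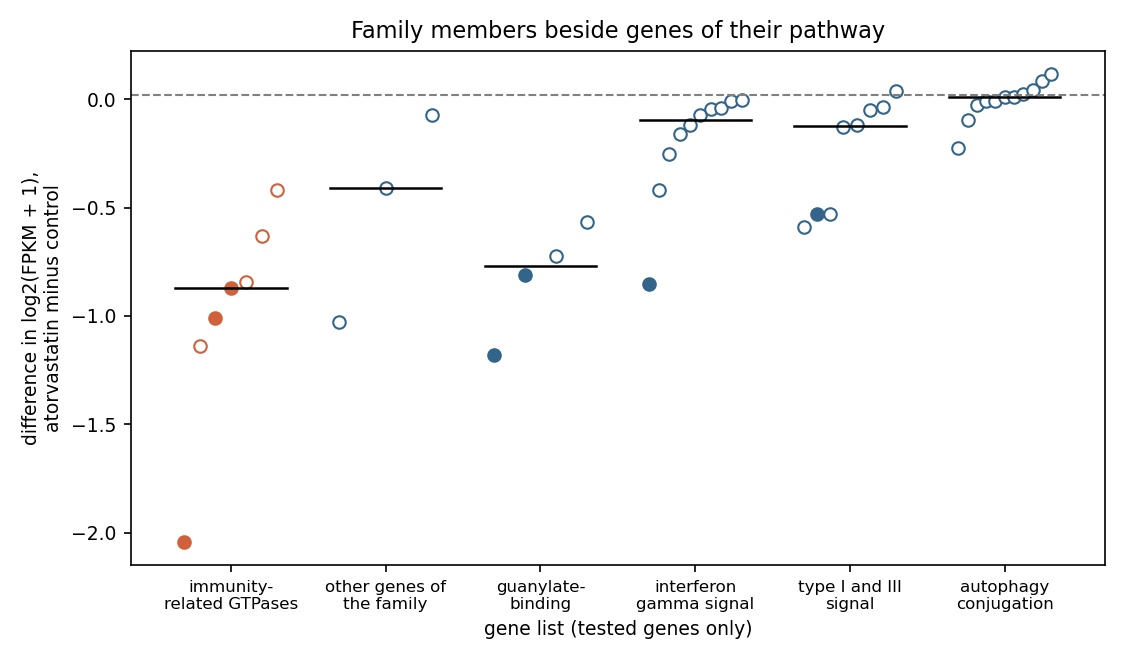
Difference in log2(FPKM + 1), atorvastatin minus control, for the 7 members (orange) and the tested genes of 5 related lists (blue); filled points have an adjusted p under 0.05, black bars are list medians and the dashed line is the median of all tested genes. The members and the guanylate-binding proteins have medians of -0.87 and -0.77, and the autophagy genes lie around 0.

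The 5 genes outside the family whose profiles over the 6 libraries lay nearest to the mean profile of the members were H2-Q6, Nlrc5, Qdpr, H2-Q5 and Rtp4. Likeness was the root mean square difference of centred log2(FPKM + 1) values, at 0.084, 0.091, 0.116, 0.125 and 0.141, beside a median of 0.523 over all other tested genes. Centring was over all 6 libraries. The members' mean profile was therefore mainly the group difference by which the family was picked (0.42 to 0.54 in control, -0.64 to -0.34 with atorvastatin). A near gene is one with a drop of similar size, and shared regulation was not tested. H2-Q6 and H2-Q5 are MHC class I genes of a cluster with similar copies, so each one's level is uncertain. Rtp4 encodes an interferon-inducible chaperone and Qdpr dihydropteridine reductase, which regenerates tetrahydrobiopterin. Qdpr was at 33.0, 32.4 and 31.5 FPKM under vehicle and 15.2, 19.7 and 19.7 FPKM under atorvastatin.

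Markers of leukocytes were measured beside the family. In bulk RNA, fewer cells of a type and less RNA per cell cannot be told apart. Of 15 T and NK cell markers 7 were tested, all with negative differences. In limma none was called and 6 had an unadjusted p under 0.05, where 497 of all 11644 tested genes were lower at that level. The whole list summed to 34.1, 32.8 and 18.7 FPKM under vehicle and 13.1, 15.5 and 18.8 FPKM under atorvastatin. No marker was listed at 0 in every library, but Cd4 was at 0 in 3. The B and plasma cell list (2 of 7 tested) summed to 5.08 to 11.3 FPKM in control and 2.56 to 3.32 FPKM with atorvastatin, and the macrophage and dendritic cell list (2 of 8 tested) to 4.29 to 9.53 and 3.04 to 3.64 FPKM. In limma no gene of either list was called, and the unadjusted p was under 0.05 for 2 of the first and 1 of the second. Of the 2, Igha reached 1 FPKM in the 3 control libraries only, so it passed the filter on low values through control alone. No fibroblast or endothelial marker reached the filter. The pan-leukocyte gene Ptprc stood at 1.81, 1.98 and 1.15 FPKM under vehicle and 0.688, 0.824 and 1.17 FPKM under atorvastatin. Of the mitochondrial ribosomal RNAs, which did not pass the test, mt-Rnr1 stood at 58.7% and mt-Rnr2 at 68.6% of the control mean (limma adjusted p = 0.115 and 0.152). The part of leukocyte content and of ribosomal RNA in the family's difference was not tested.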

How the data were processed

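RNA sequencing of 3 control and 3 atorvastatin libraries was used, each deposited by the authors as 1 file of FPKM values for 52550 Ensembl identifiers. FPKM was inferred as the unit from the range and totals of the deposited values. The submitters' processing notes name FastQC 0.11.2, Bowtie and the mm10 build. The quantifier, annotation, strand setting and handling of multiply mapped reads are not given in the sources used here. Read depth is unknown, since FPKM holds no read totals, so no counting interval is given. The members and gene lists were chosen with earlier results of these data known. Symbols matched 99.72% of identifiers. Coordinates and transcripts are from GENCODE M21.

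Genes of at least 1 FPKM in 3 or more libraries were compared as log2(FPKM + 1) with limma 3.58.1 in R 4.3.3 (trended, robust, two-sided), with Benjamini-Hochberg adjustment over all 11644 and a threshold of 0.05. The procedure was tested on simulated data. Groups came from sample titles. Alternatives were other pseudocounts, filters, scalings, variance models, a replicate block, sums of gene pairs and each library left out. Named were all members and the called genes of each list with up to 4 of its smallest further p-values. The 5 nearest profiles and a few set genes such as Epcam and Ptprc were named too. Names outside this rule are marked in the text, except Ifnb1, Cd4 and Gm12185, which also fall outside it. 1 gene of the interferon gamma list is not reported here and was left out of its counts. Motifs and coding identity were computed with Biopython 1.88.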

Additional observations from a re-analysis of the deposited data

How the results depend on the processing

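The 7 members had negative differences in all 113 combinations of a member and an alternative setting that gave a value. These combinations draw on the same 6 libraries, and the sum of a gene pair is counted for each of its genes. Irgm1, Ifi47, Tgtp1 and Tgtp2 passed in none, while Iigp1 passed in 14 of 17, Irgm2 in 12 of 18 and Igtp in 11 of 18. The count of called members was 3 with every pseudocount, scaling, variance model and filter on low values, except that with no filter it was 0. The same count was 0 with the replicate block. In both cases 6 members were lower at an unadjusted p under 0.05 in limma's test. Without control replicate 1, 0 genes were called lower (367 at an unadjusted p under 0.05 in limma's test). With a library left out the count of members ran from 0 to 3, and the count of all genes called lower from 0 to 52, against 29. That count was 19 with a filter of 5 FPKM, 0 with no filter (951 lower at an unadjusted p under 0.05) and 0 with the replicate block (402). The sample titles do not say whether a replicate number pairs libraries, so the block tests no known pairing. Deviations of same-numbered libraries correlated at -0.139, -0.106 and 0.0136 across genes. With 3 libraries per group, centred within groups, these values cannot show whether a pairing exists. The median difference of the members was -1.27 at a pseudocount of 0.1 and -1.08 at 0.5, since a smaller pseudocount widens differences of low genes. Tgtp1 and Tgtp2 could not be fitted without a control library, at a filter of 5 FPKM or on the mean of 6 libraries. Scalings moved the median of all genes by under 0.1. The spread between libraries is the sole measure of precision for Tgtp1 and Tgtp2, near 1 FPKM.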
